A study of Mus musculus with 6 samples.

Results

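COUP-TFII (NR2F2) places at the ends of noncoding genes were the autosomal peaks whose centre lay within 1 kb of an end of a RefSeq gene that does not code for protein and more than 1 kb from every protein-coding gene end. They numbered 746 of 13190 autosomal places (5.66%), where overlapping XX and XY peaks counted as 1 place at the XX coordinates. Of these, 626 were in the XX list and 536 in the XY list. They were chosen by the positions of the peaks and of the genes alone, so that they lie near noncoding genes is a description. Whether a place was in both lists was not used. Leaving out places near protein-coding ends also removes noncoding starts that lie beside a coding start, so the end of the gene at which members lay is partly set by the choice.

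Chromatin came from pooled mesonephroi of CD-1 mice at E14.5, XX or XY, and was precipitated with a rabbit antibody to COUP-TFII. The labels name no allele and no treatment for any group. Each sex had 2 precipitated samples, and 2 input samples pooled both sexes. Per the labels each sex has 1 peak list, named for both of its samples, with 11175 XX peaks and 9846 XY peaks of 300 bp in mm10 and no height or score. Read depth, the spread between samples and the number of embryos per pool are therefore unknown, and every interval covers counting error only. The extract protocol names another antibody target and fetal ovaries, against the titles, tissue and antibody labels. The lists hold no expression values against which the tissue could be checked.

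COUP-TFII is an orphan nuclear receptor of mesenchymal cells. In the mesonephros, the embryonic kidney that carries the Wolffian and Müllerian ducts, loss of COUP-TFII from the mesenchyme leaves Wolffian ducts in XX embryos. Nuclear receptors of its family recognise copies of the letters AGGTCA, often as a repeat. Noncoding genes make RNA that works without being translated. Long noncoding RNAs (lncRNAs) can act on neighbouring genes or host smaller RNAs in their introns, microRNAs (miRNAs) repress messenger RNAs through their seed, small nucleolar RNAs (snoRNAs) guide modification of other RNAs, and transfer RNAs (tRNAs) carry amino acids to the ribosome.

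Most of the noncoding genes concerned had no functional name: 593 of the 746 places lay nearest to a gene with a Gm, Rik or LOC symbol. The share of such symbols over all noncoding genes was not counted, so this is not shown to be particular to the members. Printed here are the start windows of 7 lncRNAs that overlap a place, since the sequence under the peaks themselves was not read; the overlap is partial, and part of each window lies outside the peak. Each runs from 250 bases before to 50 bases after an annotated start, on the gene's own strand, from RefSeq's table for GRCm38.p6 (mm10). Capitals mark AGGTCA or its reverse complement TGACCT. The 7 windows were chosen after the sequences were seen, and are not typical in motif content: 22.5% of the 240 members' windows hold AGGTCA. The first 4 hold 1 such motif, which lies inside the peak in Mir99ahg, Rab10os and Gm31912 and outside it in Gm20052, and the last 3 hold none.
Mir99ahg: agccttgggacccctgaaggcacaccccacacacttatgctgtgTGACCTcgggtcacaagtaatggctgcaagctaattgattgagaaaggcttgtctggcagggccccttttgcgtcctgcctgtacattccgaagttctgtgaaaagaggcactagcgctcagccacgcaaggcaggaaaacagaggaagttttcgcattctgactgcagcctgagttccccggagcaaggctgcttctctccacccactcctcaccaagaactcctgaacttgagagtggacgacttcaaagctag
Rab10os: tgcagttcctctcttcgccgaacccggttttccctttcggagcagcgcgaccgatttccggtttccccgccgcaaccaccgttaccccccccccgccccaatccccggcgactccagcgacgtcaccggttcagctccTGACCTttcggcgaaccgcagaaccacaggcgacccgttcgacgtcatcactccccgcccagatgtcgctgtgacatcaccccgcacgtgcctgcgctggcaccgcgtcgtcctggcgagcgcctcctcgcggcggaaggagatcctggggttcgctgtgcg
Gm31912: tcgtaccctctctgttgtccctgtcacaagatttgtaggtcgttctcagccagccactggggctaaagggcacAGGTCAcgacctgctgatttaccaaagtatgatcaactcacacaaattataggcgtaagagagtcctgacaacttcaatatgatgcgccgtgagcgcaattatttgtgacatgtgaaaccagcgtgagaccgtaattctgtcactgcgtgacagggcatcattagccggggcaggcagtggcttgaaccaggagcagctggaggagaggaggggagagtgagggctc
Gm20052: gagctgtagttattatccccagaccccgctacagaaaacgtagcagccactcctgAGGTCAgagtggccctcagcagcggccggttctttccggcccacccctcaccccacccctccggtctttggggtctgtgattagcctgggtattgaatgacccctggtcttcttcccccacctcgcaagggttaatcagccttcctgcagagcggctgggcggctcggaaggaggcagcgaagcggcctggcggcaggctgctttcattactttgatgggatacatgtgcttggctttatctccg
Snhg7: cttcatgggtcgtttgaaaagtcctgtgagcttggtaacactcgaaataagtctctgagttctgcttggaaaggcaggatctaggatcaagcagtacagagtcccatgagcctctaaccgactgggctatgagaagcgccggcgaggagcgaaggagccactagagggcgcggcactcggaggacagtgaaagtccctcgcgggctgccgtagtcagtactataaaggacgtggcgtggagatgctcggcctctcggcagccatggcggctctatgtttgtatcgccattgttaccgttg
Mir22hg: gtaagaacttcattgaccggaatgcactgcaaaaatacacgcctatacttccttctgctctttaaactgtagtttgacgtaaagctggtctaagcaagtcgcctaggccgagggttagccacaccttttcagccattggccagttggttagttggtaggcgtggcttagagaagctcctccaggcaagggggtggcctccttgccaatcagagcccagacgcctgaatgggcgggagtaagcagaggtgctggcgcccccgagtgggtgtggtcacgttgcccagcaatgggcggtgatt
Gm29683: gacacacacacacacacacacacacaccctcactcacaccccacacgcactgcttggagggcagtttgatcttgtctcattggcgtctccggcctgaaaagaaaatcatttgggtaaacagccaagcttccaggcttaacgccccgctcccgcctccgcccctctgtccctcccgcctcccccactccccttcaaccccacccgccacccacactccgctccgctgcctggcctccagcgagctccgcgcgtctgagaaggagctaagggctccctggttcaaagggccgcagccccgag

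The window of Mir99ahg, a lncRNA named as a miRNA host, lay at chr16:77329078-77329377 on the plus strand and shared 297 bases with a peak of both lists. That of Rab10os, antisense to the vesicle-transport gene Rab10, lay at chr12:3235541-3235840 on the plus strand, shared 167 bases with a peak of both lists and held 39 CpG dinucleotides. Gm31912 lay at chr19:56105562-56105861 on the plus strand, with 269 bases in a peak of both lists. That peak was 172 kb from Tcf7l2, its nearest protein-coding gene. Gm20052, with Msx1 as its nearest protein-coding gene, lay at chr5:37893522-37893821 on the plus strand, with 200 bases in an XY-only peak that began 40 bp beyond the end of the motif. Snhg7 lay at chr2:26640195-26640494 on the minus strand, with 145 bases in a peak of both lists. Mir22hg, the host transcript of Mir22, lay at chr11:75461289-75461588 on the plus strand, with 156 bases in an XX-only peak. Gm29683, whose place has Nr2f2 as its nearest protein-coding gene, lay at chr7:70337773-70338072 on the minus strand, with 63 bases in an XX-only peak.

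In all, 240 start windows of 216 lncRNA genes overlapped a member place, and they were compared with the 11311 windows of 9291 autosomal lncRNA genes in the table. AGGTCA, read on both strands, was in 22.5% of the members' windows (95% exact binomial interval 17.4 to 28.3%), against 19.1% of all windows. A direct repeat of AGGTCA with any 1 base between the copies was in 0 of the 240 members' windows and in 3 of all 11311. GGGCGG, the core of the GC box, was in 51.7% of the members' windows (45.1 to 58.1%), against 16.3% of all. CCGGAA, the core of ETS-family sites, was in 25.4% (20 to 31.4%), against 7.94% of all. CCAAT was in 34.2% against 35.8%, and TATAAA in 10% against 15.2%. The members' windows had a median GC content of 59.5% and 17 CpG dinucleotides, against 48.3% and 4 in all windows. A window counted where it shared at least 1 base with a peak, so a match can lie outside the peak, and it is a description of the window and not a site of binding. Some genes have several windows, which can overlap. The intervals count each window as separate and are therefore too narrow.

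Among the miRNA genes, 25 had a member place within 1 kb, and mature sequences of 23 of them were in RefSeq's table for GRCm38.p6. Those below belong to the better-known miRNAs with a place or inside a host lncRNA with one, with the seed (bases 2 to 8) in capitals. They were chosen after their values were seen.
miR-34b-3p: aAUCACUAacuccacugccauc
miR-34c-3p: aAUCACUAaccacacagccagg
miR-34b-5p: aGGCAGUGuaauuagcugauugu
miR-210-3p: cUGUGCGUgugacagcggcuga
miR-1247-5p: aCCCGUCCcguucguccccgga
miR-760-3p: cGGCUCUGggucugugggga
miR-7b-5p: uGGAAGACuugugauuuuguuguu
miR-22-3p: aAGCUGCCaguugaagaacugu
miR-15a-5p: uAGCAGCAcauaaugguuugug
miR-16-5p: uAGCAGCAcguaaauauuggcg

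The first pair shares the seed AUCACUA, and miR-15a-5p and miR-16-5p share AGCAGCA. No other seed was shared among the mature miRNAs read for these genes. Those read include miR-34c-3p but not miR-34c-5p, so the seed of the latter could not be compared with that of miR-34b-5p.

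Against the ends of protein-coding genes, the noncoding ends had fewer places in both lists. Of the 746 places, 416 were in both lists, 210 in the XX list only and 120 in the XY list only. The 6990 places within 1 kb of a protein-coding end divided into 4545 in both lists, 1176 XX-only and 1269 XY-only. The shared part was thus 55.8% (95% exact binomial interval 52.1 to 59.4%) at noncoding ends and 65% (63.9 to 66.1%) at protein-coding ends. The odds ratio was 0.678 (0.581 to 0.793, two-sided Fisher's exact test, p = 7.5e-07, Benjamini-Hochberg adjusted p = 1.5e-06 over the 6 tests given here). Over all 13190 autosomal places, members included, 55.6% were in both lists (54.8 to 56.5%), within the members' interval, so the difference is from protein-coding ends and not from the series as a whole. The share was lower at noncoding ends on 17 of 19 autosomes, all but chromosomes 15 and 16. On single chromosomes, with 25 to 65 members each, it ran between 44.4% on chromosome 18 and 66.7% on chromosome 16.

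Sex-only places were more often XX-only at noncoding ends than at protein-coding ends. XX-only places made up 63.6% of the 330 sex-only members (58.2 to 68.8%), against 48.1% of 2445 at protein-coding ends (46.1 to 50.1%). The odds ratio was 1.89 (1.48 to 2.42, two-sided Fisher's exact test, p = 1.14e-07, adjusted p = 3.42e-07). Over all 5850 autosomal sex-only places 60.5% were XX-only (59.2 to 61.8%), also within the members' interval. The XX percentage was higher at noncoding ends on 17 of 19 autosomes, with chromosomes 12 and 18 the exceptions. The XX list is the longer one, and the counts of both groups come from these same lists. Peaks and not samples were counted, so these tests compare 2 lists, and whether the sexes differ beyond the spread between samples cannot be told from them.

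Set against the 5454 places over 1 kb from every annotated gene end, the noncoding ends differed in the other direction. Away from gene ends 43.6% of places were in both lists (42.3 to 44.9%), and 70% of 3075 sex-only places were XX-only (68.4 to 71.6%). The odds ratio of noncoding ends over places away from gene ends was 1.63 for being in both lists (1.39 to 1.91, two-sided Fisher's exact test, p = 5.06e-10, adjusted p = 3.04e-09). For being XX-only among sex-only places it was 0.749 (0.588 to 0.959, Fisher's exact test, p = 0.0199, adjusted p = 0.0299), and this call was lost under 3 of 9 other settings. This comparison was added after the data were seen.

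**Figure D1:**
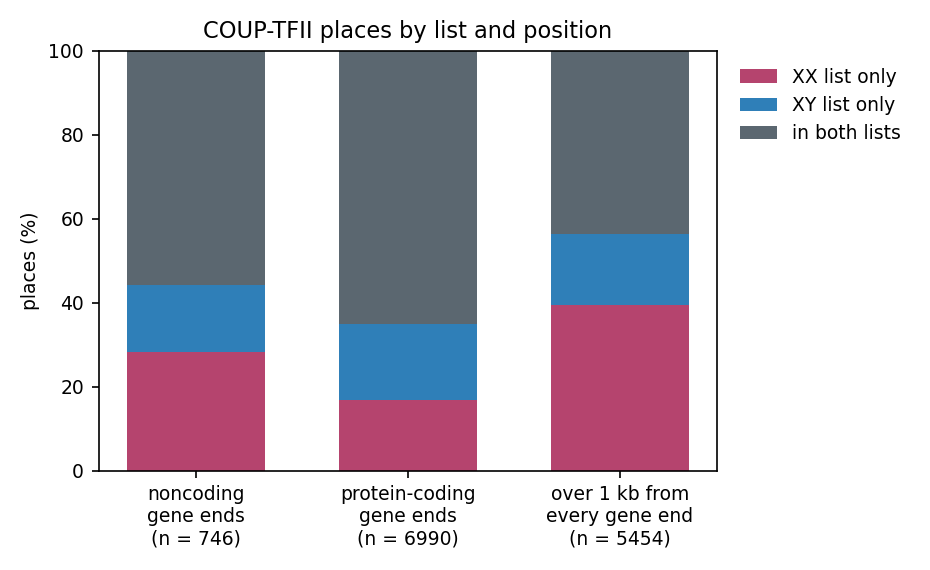
Bars show, in percent of autosomal places, those in the XX list only, the XY list only and both lists, for noncoding gene ends, protein-coding gene ends and places over 1 kb from every gene end. Shared places made up 55.8% at noncoding ends, 65% at protein-coding ends and 43.6% away from gene ends.

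Among sex-only members, some had a peak of the other list close by without touching it. A peak centre of the other list lay within 1 kb of 31 of the 210 XX-only places (14.8%) and of 27 of the 120 XY-only places (22.5%). Counting peaks within 1 kb of each other as shared left the odds ratio against protein-coding ends at 0.595 for being in both lists.

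By kind of the nearest noncoding gene, lncRNAs took 562 of the 746 places, with 306 in both lists, 164 XX-only and 92 XY-only. Pseudogenes, copies of genes that have lost their function, took 54 (24 in both lists, 21 XX-only and 9 XY-only). The tRNA genes took 49, of which 35 were in both lists (71.4%, 56.7 to 83.4%), with 7 XX-only and 7 XY-only. Transcribed pseudogenes took 25 (16, 7 and 2 in the same order), miRNA genes 22 (12, 6 and 4), small nuclear RNA (snRNA) genes 18 (13, 3 and 2), snoRNA genes 5 (3, 1 and 1) and other kinds 11 (7, 1 and 3). Of these kinds, pseudogenes had the lowest part in both lists, 44.4% (30.9 to 58.6%), and snRNA genes the highest, 72.2% (46.5 to 90.3%); their intervals overlap. Differences between kinds were not tested.

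**Figure D2:**
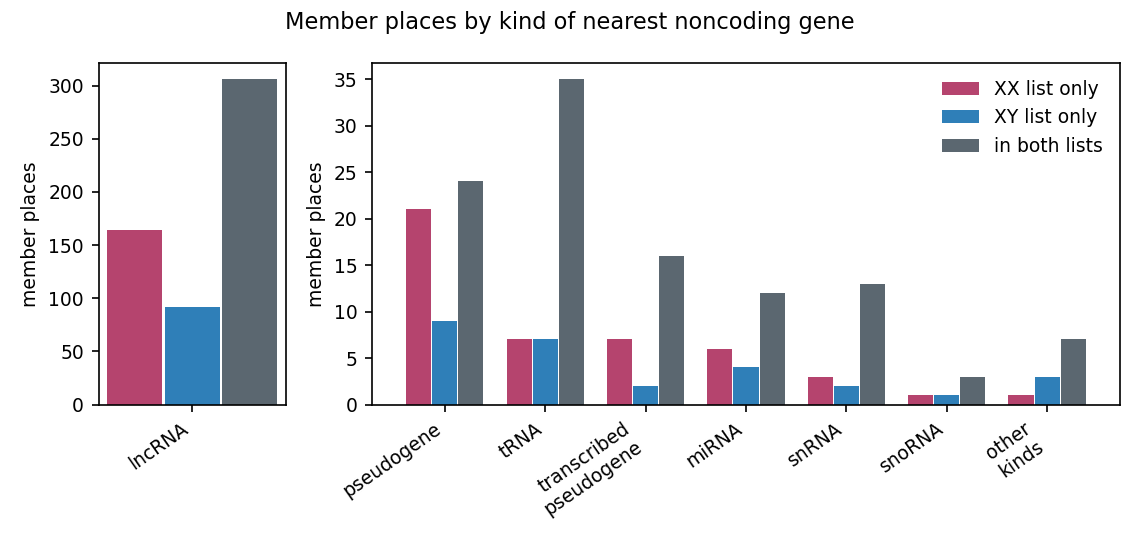
Bars count member places by the kind of the nearest noncoding gene and by list, with lncRNAs on an axis of their own. The lncRNA bars stand at 164 XX-only, 92 XY-only and 306 shared, and the tRNA bars at 7, 7 and 35.

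Counted by gene, 793 of the 26377 annotated autosomal noncoding genes had a member place within 1 kb of an end (3.01%). A shared place lay at 471 (1.79%), an XX-only place at 229 (0.868%) and an XY-only place at 129 (0.489%). The tRNA genes stood highest among the large kinds, with 76 of 391 (19.4%, 15.6 to 23.7%), followed by 26 of 435 transcribed pseudogenes (5.98%) and 563 of 12408 lncRNAs (4.54%). Below the background were 25 of 1136 miRNA genes (2.2%), 20 of 931 snRNA genes (2.15%), 17 of 1286 snoRNA genes (1.32%) and 55 of 8884 pseudogenes (0.619%). None of 394 immunoglobulin and T-cell receptor V segments and none of 61 ribosomal RNA genes had one. Over genes more than 2 kb from every protein-coding end, where the second condition of the choice removes less, 67 of 326 tRNA genes (20.6%) and 431 of 9751 lncRNAs (4.42%) had a member. Since the choice was made on these positions, no test was run on these shares.

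Hosts of snoRNAs were the list of lncRNAs with the largest part covered. These genes carry snoRNAs in their introns, and 11 of 21 in the annotation had a member place, 9 in both lists and 2 XX-only. That is 52.4%, against 4.54% of lncRNAs and 3.01% of all noncoding genes. Nearest to the peak centre were Snhg7 at 55 bp, Snhg17 at 69 bp, Snhg15 at 83 bp, Epb41l4aos at 97 bp, Snhg3 at 117 bp and Snhg16 at 127 bp. Snhg16 and Snhg4 were the XX-only places, at chr11:116671637-116671936 and chr18:35553109-35553408. Snhg20, Snhg12, Snhg8 and Snhg5 had shared places within 150, 210, 349 and 359 bp. A further 6 hosts, Snhg6, Snhg10, Snhg18, Snhg1, Zfas1 and Gas5, had a peak that was not a member since a protein-coding end lay within 1 kb, so 17 of 21 had a peak of either kind.

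The guest snoRNAs were counted too. Of the 17 snoRNA genes with a member within 1 kb, the nearest 10 were Snord104 at 45 bp, Gm23223 at 74 bp, Gm22711 at 138 bp, Gm23639 at 176 bp, LOC115488834 at 273 bp, Snord49b at 330 bp, Snord58b at 511 bp, LOC115487884 at 513 bp, Snora16a at 578 bp and Snora73a at 591 bp. Only 5 of the 746 places had a snoRNA gene as the nearest noncoding gene. Snora16a lay by the Snhg12 place, Snora73a by the Snhg3 place, LOC115487884 by the Snhg15 place and Gm23639 by the Epb41l4aos place, so these are not further places. Gm23223 alone among the 10 was at an XY-only place, and the other 9 were at shared ones.

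Among the lists, widely expressed RNAs with known structural or regulatory roles came next, with 7 of 15 (46.7%). Over all noncoding genes it was 3.01%, and over lncRNAs 4.54%. The list is short and was chosen with earlier results of these data known. Terc, the template RNA of telomerase, lay at 74 bp, Pvt1 beside Myc at 160 bp, Oip5os1 (Cyrano, which binds miR-7) at 239 bp, Neat1, the scaffold of paraspeckles, at 291 bp, Rn7sk, which holds the elongation factor P-TEFb inactive, at 383 bp and Dleu2 at 673 bp. Malat1, a lncRNA of nuclear speckles, followed at 795 bp. The Dleu2 place was XX-only and the other 6 were in both lists. The place by Rn7sk did not overlap that gene, and its nearest noncoding gene was the lncRNA C920006O11Rik, whose start lay 102 bp from the centre. The Pvt1 place, chr15:62037677-62037976, was 47.5 kb from the end of Myc. Tug1 and Rmrp had peaks beside a protein-coding end, which are not members.

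**Figure D3:**
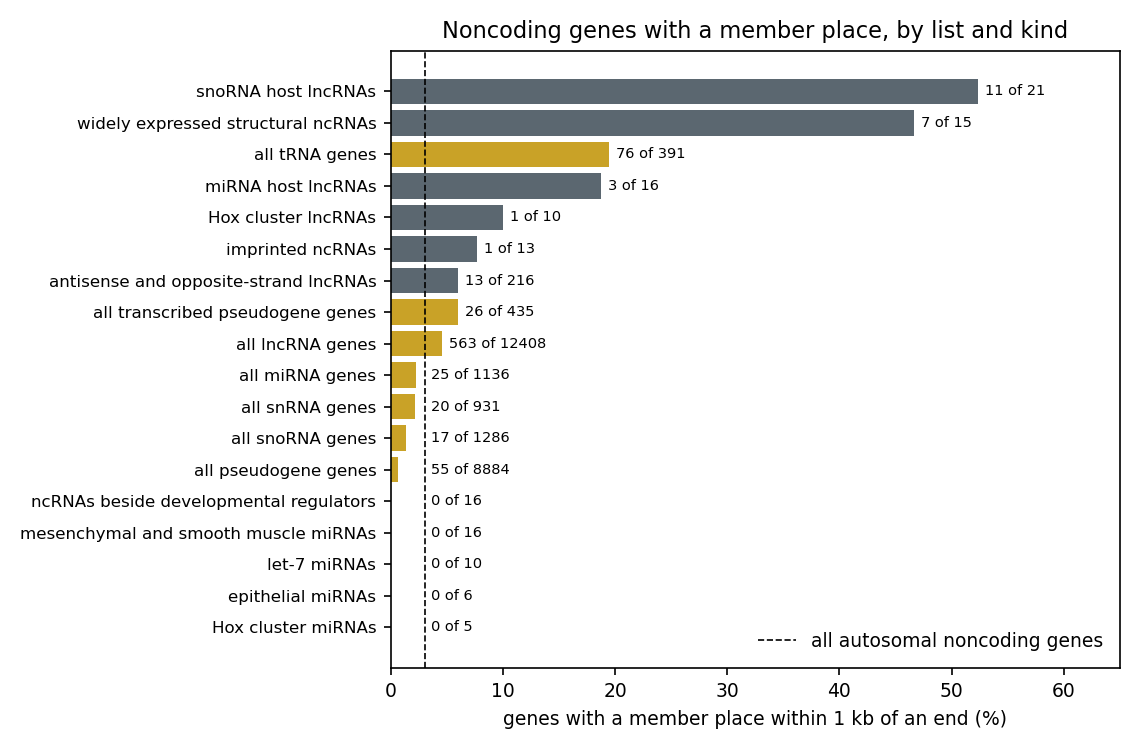
Bars give the percent of genes with a member place within 1 kb of an end, grey for gene lists and yellow for whole kinds of gene, with counts at the bars. The dashed line is the 3.01% of all autosomal noncoding genes, and snoRNA hosts stand at 52.4%.

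Of 16 miRNA host lncRNAs, 3 had a place (18.8%, against 4.54% of lncRNAs). The start of Mir22hg lay 44 bp from an XX-only centre at chr11:75461433-75461732, with Mir22 2.13 kb away. Carmn, the smooth-muscle host of Mir143 and Mir145a, lay 49 bp from a shared centre at chr18:61665437-61665736, with those miRNA genes 16.3 and 17.7 kb away. Mir99ahg lay 98 bp from a shared centre, 212 kb from the nearest protein-coding end, that of Usp25. At the Dleu2 place, Mir15a and Mir16-1 were 49.6 and 49.7 kb away inside the host. The miRNA genes themselves had no member place in any of the lists: 0 of 16 mesenchymal and smooth muscle miRNAs, 0 of 6 epithelial miRNAs (the Mir200 family, Mir141, Mir429 and Mir205), 0 of 5 Hox cluster miRNAs and 0 of 10 let-7 genes. None of the genes of these 4 lists had a peak of either kind within 1 kb. Over all 1136 miRNA genes 2.2% had a member place and 6.6% a peak of either kind. Zeros in lists this short cannot be told from those shares.

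The miRNA genes with a member were mostly little-studied ones. Nearest first they were Mir34b at 14 bp, Mir7653 at 14 bp, Mir3086 at 21 bp, Mir6546 at 23 bp, Mir7228 at 33 bp, Mir1893 at 35 bp, Mir713 at 46 bp, Mir1895 at 51 bp, Mir5620 at 91 bp and Mir7671 at 148 bp. Mir3086 and Mir6546 were XX-only, Mir7228 was XY-only and the other 7 were in both lists. Mir34b and Mir34c, p53-responsive miRNAs that also act in ciliated cells, are transcribed in 1 cluster, and the place at chr9:51103399-51103698 lay 14 bp from Mir34b and 439 bp from Mir34c. Of the 22 places nearest to a miRNA gene, 17 (77.3%) lay inside a protein-coding gene, against 269 of all 746 (36.1%).

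Named after their values were seen, Mir210, induced by low oxygen, lay 429 bp from an XX-only centre at chr7:141221772-141222071. Mir760 lay 294 bp from a shared centre. Mir1247 lay 210 bp from an XY-only centre at chr12:110277689-110277988, the same place that lay 230 bp from Dio3os and 1.39 kb from Dio3, which codes for an enzyme that inactivates thyroid hormone. Mir7b lay 734 bp from the shared place of the lncRNA A230051N06Rik.

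Antisense and opposite-strand transcripts, named for the protein-coding gene they face, had a place at 13 of 216 (6.02%), 11 of them shared. Over all lncRNAs 4.54% had a place, and over all noncoding genes 3.01%. The difference was not tested. Rab10os lay at 33 bp, Sox6os at 53 bp, Hoxd3os1 at 73 bp, Gnasas1 at 94 bp, Epb41l4aos at 97 bp and Hk1os at 198 bp. The Sox6os place was XX-only and lay 8.85 kb from an end of Sox6, a transcription factor gene of cartilage and other lineages. The Dio3os place was the XY-only one. A peak of either kind lay at 41 of the 216, so most of those with a peak had a protein-coding end within 1 kb. Such a peak lay at 10.6% of all lncRNAs.

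The remaining lists are short, and each had 1 or 0 genes with a place. Over all noncoding genes 3.01% had one, and over lncRNAs 4.54%. Counts in lists this short cannot be told from those shares. Gnasas1 (Nespas), antisense in the imprinted Gnas locus, was the 1 of 13 imprinted noncoding RNAs with a place, in both lists at chr2:174295193-174295492. Hoxd3os1 was the 1 of 10 Hox cluster lncRNAs, in both lists at chr2:74715908-74716207, while Hoxb3os and Haglr had peaks beside protein-coding ends. Among noncoding RNAs beside developmental regulators, such as Fendrr, Hand2os1 and Wt1os, 0 of 16 had a peak of either kind. Over all noncoding genes 6.49% had such a peak.

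The tRNA places spread over 15 autosomes. Chromosome 13 held 9 of the 49, between positions 21199818 and 23506701, and 7 of those 9 were in both lists. It also holds the most tRNA genes, and 12 of its 105 (11.4%) had a place, against 76 of 391 over all autosomes. On chromosome 1 it was 13 of 37 (35.1%), on chromosome 11 it was 11 of 52 (21.2%) and on chromosome 6 it was 1 of 53 (1.89%). Neighbouring tRNA genes can fall within 1 kb of the same peak, and 24 of the 49 places had another noncoding gene within 1 kb. By amino acid, genes with a place were 10 of 15 for proline, 4 of 8 for tryptophan, 5 of 10 for tyrosine, 7 of 28 for glycine, 5 of 20 for glutamate, 3 of 56 for cysteine and 1 of 21 for valine. In 16 places the 300 bp peak held the whole tRNA gene. Examples in both lists were n-TPagg6 at 17 bp, n-TPtgg8 at 15 bp (19.7 kb from Wnt11), n-TPcgg3 at 10 bp and n-TMcat8 at 8 bp, where the letter after n-T is the amino acid and the next 3 are the anticodon. XY-only were n-TPtgg6 at 5 bp, n-TWcca8 at 7 bp and n-TFgaa5 at 8 bp; n-TRtcg5 had an XX-only centre at 11 bp. These examples were picked after their distances were seen. Copies of tRNA genes are near-identical, and how reads with several placements were treated is not given in the sources used here, so which copy was bound is uncertain.

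Small nuclear RNA genes of the spliceosome were among the shared places. Rnu11, the U11 RNA of the minor spliceosome, lay at 33 bp and Rnu1a1, a U1 RNA, at 40 bp. The U3 genes Rnu3b1, Rnu3b2, Rnu3b3 and Rnu3b4, whose RNA acts in ribosomal RNA processing, each had a shared place at 480, 367, 386 and 360 bp, and Rnu3b3 had an XX-only place at 334 bp too. These U3 genes sit within the protein-coding gene Tex14 and are near-identical, with the same uncertainty about copies. Rn7s2, an RNA of the signal recognition particle, lay 371 bp from a shared centre, and Scarna2, a guide RNA of Cajal bodies, 202 bp. These names were chosen after their values were seen.

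A member place lay at each of 51 genes more than once, always 2 places. Both were shared at 9 genes: 2410022M11Rik, A630026N12Rik, B330016D10Rik, Gm11214, Gm19744, Gm51701, Gm52285, Gm52558 and Gm8899. Both were XX-only at 5, namely 2900076A07Rik, Gm11963, Gm32965, Gm34542 and LOC115487186. Both were XY-only at 1, the immunoglobulin constant region Ighg2c, with centres 129 and 675 bp from its ends. Gm32965, 23.9 and 31.7 kb from Smad5, had its places at opposite ends, 517 and 284 bp away.

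An XX-only and an XY-only place stood together at 15 genes, so that both sexes had a peak at the gene though not in the same position. They were 1700045H11Rik, 2310015A10Rik, 9630013D21Rik, A630066F11Rik, Gm10244, Gm15541, Gm16505, Gm23444, Gm35417, Gm44689, Gm52095, Gm52500, Gm8273, LOC108168428 and n-TFgaa5. At Gm10244 the XX-only centre was 3 bp and the XY-only centre 448 bp from an end, and at Gm52095 they were 7 and 315 bp away.

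A shared and an XX-only place stood at 13 genes, 4930577N17Rik, 5730522E02Rik, Gm10190, Gm21321, Gm32315, Gm34102, Gm34755, Mir6991, Rnu3b3, Rny3, n-TKctt25, n-TKctt26 and n-TRtcg5. Rny3, a Y RNA and partner of the Ro protein, had the XX-only centre at 460 bp and the shared centre at 150 bp. A shared and an XY-only place stood at 8, 1700052K11Rik, 4833417C18Rik, Gm26876, Gm38959, Gm46751, n-TLcaa1, n-TQttg6 and n-TTcgt5. Of these, 4833417C18Rik, Gm38959 and n-TQttg6 neighbour each other on chromosome 11 and have places in common.

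The members lay close to the gene ends within the limit. The median distance from a peak centre to the nearest noncoding end was 310 bp, and 322 places (43.2%) were within 250 bp. The centre lay inside the noncoding gene at 339 places. At 80 places several noncoding genes had an end within 1 kb, and joining places within 2 kb of each other left 697 loci. It was 337 bp for XX-only, 356 bp for XY-only and 282 bp for shared places. By kind, it was 136 bp for transcribed pseudogenes, 160 bp for tRNA genes, 209 bp for miRNA genes, 324 bp for lncRNAs and 368 bp for pseudogenes. Just inside the limit of 1 kb were Gm52854 at 999 bp, Gm30232 at 998 bp and Gm35290 at 996 bp, and just outside were Gm40997 at 1003 bp, Gm52599 at 1007 bp and Gm6159 at 1010 bp. By distance to a protein-coding end, D130020L05Rik at 1020 bp, Gm5144 at 1026 bp and Mir5131 at 1027 bp were just inside, and Mir7666 at 997 bp, Gm41377 at 996 bp and 4930515G01Rik at 993 bp just outside.

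Most lncRNA places were at the start of the gene. A strand was known for 448 of the 562 lncRNA places, and 366 of these (81.7%, 77.8 to 85.2%) were nearer to the start of transcription than to its finish. At protein-coding ends 5521 of 5660 places were nearer to the start (97.5%, 97.1 to 97.9%). This pair of shares is a description with no test, since the choice drops lncRNA starts within 1 kb of a coding end. By list, 80.9% of 136 XX-only, 80.3% of 71 XY-only and 82.6% of 241 shared lncRNA places were nearer to the start. XX-only over shared places had an odds ratio of 0.893 (0.504 to 1.6, Fisher's exact test, p = 0.678, adjusted p = 0.725), and XY-only over shared places one of 0.86 (0.424 to 1.83, p = 0.725, adjusted p = 0.725).

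Around the start the places lay evenly on both sides. Centres were upstream of it at 182 and downstream at 184 of the 366, with a median signed distance of 4.5 bp, and 184 (50.3%) were within 250 bp. At the finish, 14 of 82 (17.1%) were within 250 bp and the median distance was 491 bp, against 246 bp at the start.

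**Figure D4:**
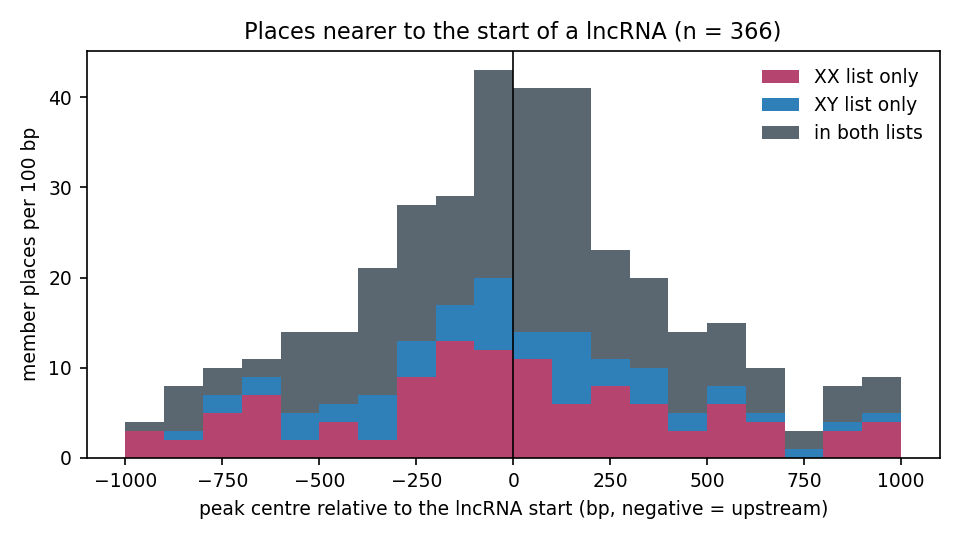
Stacked bars count, in steps of 100 bp, lncRNA places nearer to the start by the distance of the peak centre from it, negative upstream, and by list. The 366 places gather around 0, with 184 within 250 bp.

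The ends of protein-coding genes were often far away. The median distance of a member centre to the nearest protein-coding end was 13.7 kb, with a range of 1.02 to 929 kb; 84 places lay within 2 kb, 416 over 10 kb and 81 over 100 kb. XX-only places had a median of 19.2 kb, XY-only places 12 kb and shared places 11.6 kb, which was not tested. Places inside the span of a protein-coding gene numbered 269 (36.1%). For 719 places the table of starts held protein-coding starts on the same chromosome, though not those of every gene. At Gm6085, 84 kb from Mrpl15, the nearest start in it was 13456670 bp away. Of the 719, 122 had a listed start of a protein-coding gene within 1 kb that is not the gene's outer end. This count is a lower bound. Among those 122, 63.1% were in both lists (53.9 to 71.7%), against 54.8% of the other 597 (50.7 to 58.8%). The 597 can include places near an unlisted start.

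Farthest from any protein-coding end among shared places were Gm34345 (624 kb), Gm19744 (618 and 617 kb for its 2 places), Gm11228 (596 kb) and Gm42303 (509 kb). Among XX-only places they were AA545190 (929 kb), LOC115486959 (619 kb), Gm7931 (490 kb), D530049I02Rik (383 kb) and Gm44689 (372 kb). Among XY-only places they were Gm41798 (426 kb), Gm29908 (384 kb), Gm44689 (372 kb), Gm33041 (282 kb) and Gm31423 (185 kb). All but Gm7931, a transcribed pseudogene, were lncRNAs. Both Gm19744 places lay inside the protein-coding gene Tenm3, and the Gm42303 place lay inside Ptprd. These are thus far from the outer ends of a gene that holds them. Gm11228 had its start 36 bp from the peak centre, so a place 596 kb from coding genes lay at an annotated start.

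**Figure D5:**
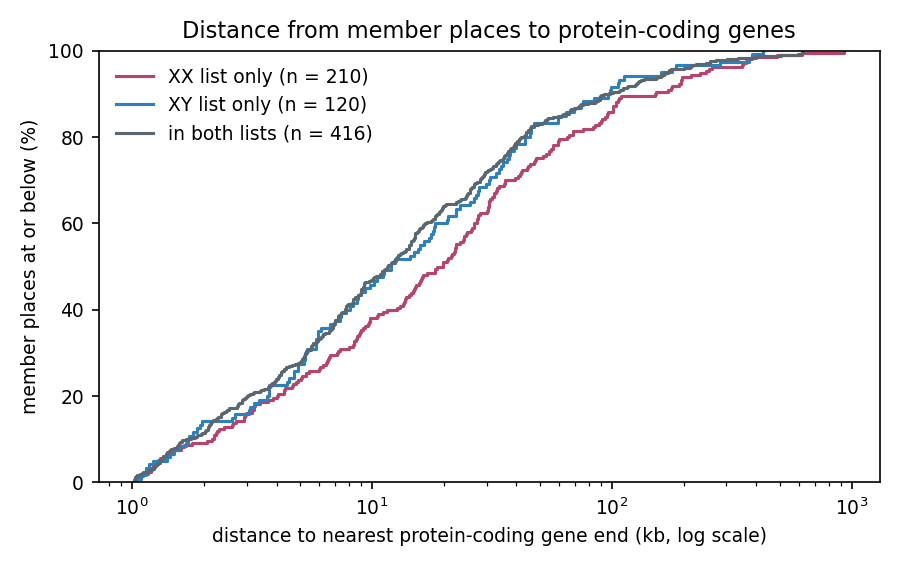
Curves give the percent of member places at or below each distance to the nearest protein-coding gene end, on a log axis in kb, for XX-only, XY-only and shared places. The XX-only curve has its middle at 19.2 kb, against 12 kb for XY-only and 11.6 kb for shared places.

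At some places the nearest protein-coding gene was a known developmental regulator, signal or matrix gene. The examples were picked by hand after the members were seen, are not a full count and carry no share by list. Distances to protein-coding genes run from the peak centre to the nearest end of the gene. Among XX-only places were Gm29683, 167 bp from the peak centre and with Nr2f2, the gene of COUP-TFII itself, 14.3 kb away, and Gm36767, 8.42 kb from Tbx18, a factor of urogenital mesenchyme. Also XX-only were 2810405F15Rik, 8.38 kb from the homeobox gene Meis2, 4933412O06Rik, 51.6 kb from the Hedgehog effector Gli3, and Gm30983, 30.3 kb from Srd5a2, whose enzyme makes dihydrotestosterone.

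XY-only places included Gm15222, whose start lay 101 bp from a peak centre inside Bmp4, the gene of a signalling ligand. That centre was 3.09 kb from an end of Bmp4. Gm4208 was 3.08 kb from the neuropilin gene Nrp2, Gm29418 112 kb from the kidney progenitor factor Six2 and Gm20052 69.2 kb from Msx1. The place of Gm41568 lay inside the receptor gene Notch3, 18.2 kb from its nearest end. The centre at Gm20052 fell 1 bp from the start.

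Shared places of this kind included Gm46293, 7.23 kb from the collagen gene Col1a1, and Gm15418, 10.8 kb from Col4a1. Gm31674 lay 132 kb from Meis1, Gm39769 46.1 kb from the renal factor Pax8, Gm36183 33.2 kb from the inhibitor gene Id4 and D130051D11Rik 52.8 kb from the ligand gene Wnt7b. Gm52558 had 2 shared places, 6.9 and 6.06 kb from the Notch ligand gene Dll4. Near Hes1, a Notch target, the XX-only place of 4632428C04Rik was 56.8 kb and the shared place of Gm32796 92.3 kb away. Chaserr, a lncRNA that represses Chd2, lay 340 bp from a shared centre, and Lockd, downstream of Cdkn1b, 597 bp from another. The lists give positions only, so whether any of these RNAs or their neighbours is expressed was not measured.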

How the data were processed

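Mesonephroi of CD-1 mice at E14.5 were profiled by chromatin immunoprecipitation and sequencing for COUP-TFII. The deposited files hold peak positions in mm10 for each sex, without a score, count or p-value, and the authors made 1 list per sex. Per the submitters' processing notes, tools included HOMER 4.10.3, Bowtie 1.2, bedtools 2.24.0, Picard and cutadapt. Their roles, the threshold for peaks and the treatment of replicates: not given in the sources used here.

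XX and XY peaks with at least 1 bp in common were counted as 1 place at the XX coordinates. A check with bedtools 2.31.1 counted 7340 autosomal XX peaks that overlapped an XY peak. Centres were measured to both ends of 26377 noncoding and 20665 protein-coding autosomal genes of RefSeq's GRCm38.p6 table. Every biotype other than protein-coding, immune gene segments included, counted as noncoding. RefSeq's tables of start windows and mature miRNAs gave strands and sequences. Genes without a window have no strand. The table of windows has no entry for chromosome 18 and lacks windows of some genes on other chromosomes, protein-coding ones included. Mature miRNAs of chromosome 18 were left out too. Shares have exact (Clopper-Pearson) 95% intervals, and Fisher's exact test (two-sided, conditional odds ratio) compared groups (scipy 1.17.1, threshold 0.05), adjusted over 6 tests by Benjamini-Hochberg. The procedure was tested on simulated data.

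The members and the gene lists were chosen with earlier results of these data known. Genes named are those with 2 or more member places, up to 6 per list and up to 10 miRNA and 10 snoRNA genes nearest first. Also named are the 5 places per class farthest from coding gene ends and those at the 1 kb limit. Any further gene was named after its values were seen. The input samples have no peak list and were not used. Other definitions of a shared peak, of the distance limit, of the coordinates, of the kinds of gene and of the chromosomes were tried.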

Additional observations from a re-analysis of the deposited data

Results flagged for a closer look

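On the X chromosome, which the comparisons leave out, 17 places lay within 1 kb of a noncoding gene end and over 1 kb from every protein-coding end. They stood out only as peaks in data not used above, with no control list to set them against. The places divided into 5 XX-only, 1 XY-only and 11 in both lists. The shared part was 64.7% (95% exact binomial interval 38.3 to 85.8%), beside 40.7% (33.8 to 47.9%) of the 199 X places at protein-coding ends; the difference was not tested. Jpx, a lncRNA that activates X inactivation, lay 229 bp from a shared centre, and Gm14812 lay 16 bp from another. The XX-only places were at 2010204K13Rik, Mir5617, Gm6268, 5530601H04Rik and Gm15201, and the XY-only place was at Gm34138.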

How the results depend on the processing

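Against protein-coding ends, the shared odds ratio kept its direction and its side of the threshold under all 11 other settings (0.568 to 0.744, largest p 6.67e-05), and so did the XX-only odds ratio (1.58 to 2.18, largest p 5.28e-05). Against places away from gene ends, the shared odds ratio did so under 9 of 9 settings (1.3 to 1.92, largest p 0.000556). The XX-only odds ratio there did so under 6 of 9 and passed the threshold no longer with peaks within 1 kb counted as shared (0.769, p = 0.0556), gene ends within 500 bp (0.772, p = 0.0522) or lncRNAs only (0.776, p = 0.0685, all two-sided Fisher's exact tests); the cause was not tested. Counting only starts of transcription left 401 places at 395 genes, in place of 746 and 793, as this setting leaves out both the noncoding genes without a strand (10210 have one) and the finish ends of the others; under the other settings places numbered 645 to 940 and genes 676 to 1035. No paired analysis was possible because each sex has 1 peak list over both of its samples. Without heights or read counts, no place can be called weaker in 1 sex, and weak and absent binding cannot be told apart.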

Other observations

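Transcribed pseudogenes with a shared place included Bambi-ps1 at 124 bp, Zfp133-ps at 95 bp, Magef1 at 48 bp and Abhd1 at 58 bp, and Hyi had an XY-only place at 54 bp. Immunoglobulin genes were the nearest noncoding genes at 3 places, all XY-only, 2 at Ighg2c and 1 at Igk, 95 bp from its end. Of the windows at starts, those with a shared place held GGGCGG in 55.9% of 145 and those with a sex-only place in 45.3% of 95 (exact binomial intervals 47.4 to 64.1% and 35 to 55.8%). CCGGAA was in 29.7% and 18.9% of these windows (22.4 to 37.8% and 11.6 to 28.3%). Neither difference was tested, and genes with several windows count more than once.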
